A study of Mus musculus with 2 samples.

Results

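p300 occupancy was examined at 4 stretches of the mouse genome that hold the genes Sox2, Pax6, Zic1, Zic2 and Zic5, transcription factor genes of neural progenitors. The windows, on build mm9, were chromosome 3 from 34.2 to 35.0 Mb for Sox2, chromosome 2 from 105.3 to 105.8 Mb for Pax6, chromosome 9 from 91.0 to 91.6 Mb for Zic1, and chromosome 14 from 122.6 to 123.1 Mb for Zic2 and Zic5. Every listed p300 peak with its midpoint in a window was taken. This gave 28 of the 6383 peaks of the series: 27 of the 2786 midbrain peaks and 1 of the 3597 heart peaks. The Sox2 window held 11 midbrain peaks, the Pax6 window 4, and the Zic1 window and the Zic2 and Zic5 window 6 each. The heart peak lay in the Pax6 window.

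The data came from a p300 chromatin immunoprecipitation with sequencing (ChIP-seq) of heart and midbrain of CD-1 mouse embryos of both sexes at embryonic day 11.5. There was 1 library per tissue, each from a pool of about 150 embryos, so a difference between tissues is a difference between 2 libraries, with no replicate check and no p-value. The pool holds all cell types of the dissected tissue, and fewer cells with a bound site cannot be told apart from less binding per cell. No RNA was measured, so the tissue labels could not be checked against marker transcripts. Depth differed, with 1303861 aligned reads from heart and 5869671 from midbrain, so read numbers were scaled to the reads aligned in each library and are given as rpm (reads per 1000000 aligned reads). On that scale 1 heart read is 0.767 rpm and 1 midbrain read 0.170 rpm. Where no read was counted, the limit used is 3 reads, which is 2.30 rpm in heart and 0.511 rpm in midbrain. This limit is one-sided, and the two-sided exact interval drawn for single peaks reaches 2.83 rpm for no heart read. Intervals are exact 95% intervals that treat reads as independent. They cover counting error only, since 1 library per tissue gives no measure of the variation between libraries.

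As background, p300 is a histone acetyltransferase and coactivator that is brought to DNA by transcription factors and is found at many active enhancers. Sox2 encodes an HMG-box factor that keeps neural cells in the progenitor state. Pax6 encodes a paired-box and homeodomain factor best known for the eye and the forebrain. The Zic genes encode zinc finger factors of the dorsal neural tube, and Zic2 is needed for closure of the neural tube and division of the forebrain. Genes of this kind often have several enhancers spread over long stretches of DNA. In the RefSeq gene table (GRCm38.p6), Sox2 lies within the long noncoding RNA gene Sox2ot, between the protein-coding genes Dnajc19 and Atp11b. Pax6 lies between Rcn1 and Immp1l and overlaps Elp4, an Elongator subunit gene whose introns are known to hold distant Pax6 enhancers. Zic1 overlaps Zic4 in that table, and Zic5 and Zic2 are direct neighbours, followed by Pcca, a gene of propionate metabolism. That table is on another build than the peaks, so the distance of a peak from a gene, and whether it is intronic or intergenic, was not measured.

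The genome sequence of build mm9 was not used here, so the bases under the peaks are not printed. To show the gene starts for which the windows are named, the 250 bases before the start are given for the 4 of 5 genes with an entry in RefSeq's promoter table (GRCm38.p6), on the gene's own strand, 5′ to 3′. Capitals mark matches on either strand to 6 motifs, overlaps between motifs allowed. The letters searched were ACAANG for SOX factors, ATGCAAAT for the octamer bound by POU factors, TAATTA for homeodomain factors, CAGCTG for the E-box of bHLH factors, AGATAA for the GATA factors, and for the ZIC zinc fingers CAGCNGG. For Pax6 the second of its 2 listed starts is shown, and the other held no match.
Sox2, chr3:34649745-34649994, plus strand: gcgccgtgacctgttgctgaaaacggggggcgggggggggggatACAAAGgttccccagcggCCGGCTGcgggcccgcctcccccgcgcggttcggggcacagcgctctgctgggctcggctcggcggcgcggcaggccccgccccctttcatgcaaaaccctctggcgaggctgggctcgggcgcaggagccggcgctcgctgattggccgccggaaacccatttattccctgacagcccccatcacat
Pax6, chr2:105682213-105682462, plus strand: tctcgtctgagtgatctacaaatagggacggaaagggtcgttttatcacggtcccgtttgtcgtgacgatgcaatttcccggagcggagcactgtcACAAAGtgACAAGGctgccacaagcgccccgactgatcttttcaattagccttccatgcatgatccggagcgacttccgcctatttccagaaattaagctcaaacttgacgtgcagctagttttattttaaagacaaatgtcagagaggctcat
Zic1, chr9:91365769-91366018, minus strand: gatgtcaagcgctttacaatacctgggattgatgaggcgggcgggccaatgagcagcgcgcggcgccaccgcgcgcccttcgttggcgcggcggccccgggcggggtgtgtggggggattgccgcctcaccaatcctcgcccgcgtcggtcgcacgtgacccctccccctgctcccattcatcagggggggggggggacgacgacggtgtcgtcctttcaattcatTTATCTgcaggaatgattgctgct
Zic5, chr14:122465659-122465908, minus strand: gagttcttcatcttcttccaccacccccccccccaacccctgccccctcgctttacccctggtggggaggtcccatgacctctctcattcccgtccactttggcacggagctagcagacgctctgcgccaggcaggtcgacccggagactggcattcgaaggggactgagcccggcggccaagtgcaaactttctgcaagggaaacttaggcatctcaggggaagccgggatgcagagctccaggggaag

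The Sox2 stretch held the SOX letters once, at position -206 from the start, and the ZIC letters once, at -188. The Pax6 stretch held the SOX letters at -154 and at -146. The Zic1 stretch held the GATA letters at -24, and the Zic5 stretch held none of the motifs. The SOX and ZIC letters are common and the others less so. Of all 32851 promoters of the same length, 36.3% held SOX, 21.4% ZIC, 13% E-box, 9.99% GATA, 4.84% homeodomain and 1.6% octamer. A match is a description of letters, and no p300 read was assigned to these stretches.

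The windows were dense in midbrain peaks. Genome tiles of the same length held a median of 0 midbrain peaks. Of 3218 tiles of 800 kb, 9 (0.280%) held as many midbrain peaks as the Sox2 window with its 11. Of 4271 tiles of 600 kb, 57 (1.33%) held at least the 6 of the Zic1 window. Of 5127 tiles of 500 kb, 56 (1.09%) held at least the 6 of the Zic2 and Zic5 window, and 150 (2.93%) at least the 4 of the Pax6 window. Because the windows were drawn with results of these data known, these shares of tiles are a description. Heart peaks were few, and this is common: 65.0% of 500 kb tiles, 61.1% of 600 kb tiles and 54.1% of 800 kb tiles held no heart peak. None of the 27 midbrain peaks overlapped a heart peak, where 5.56% of the whole midbrain list did.

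**Figure D1:**
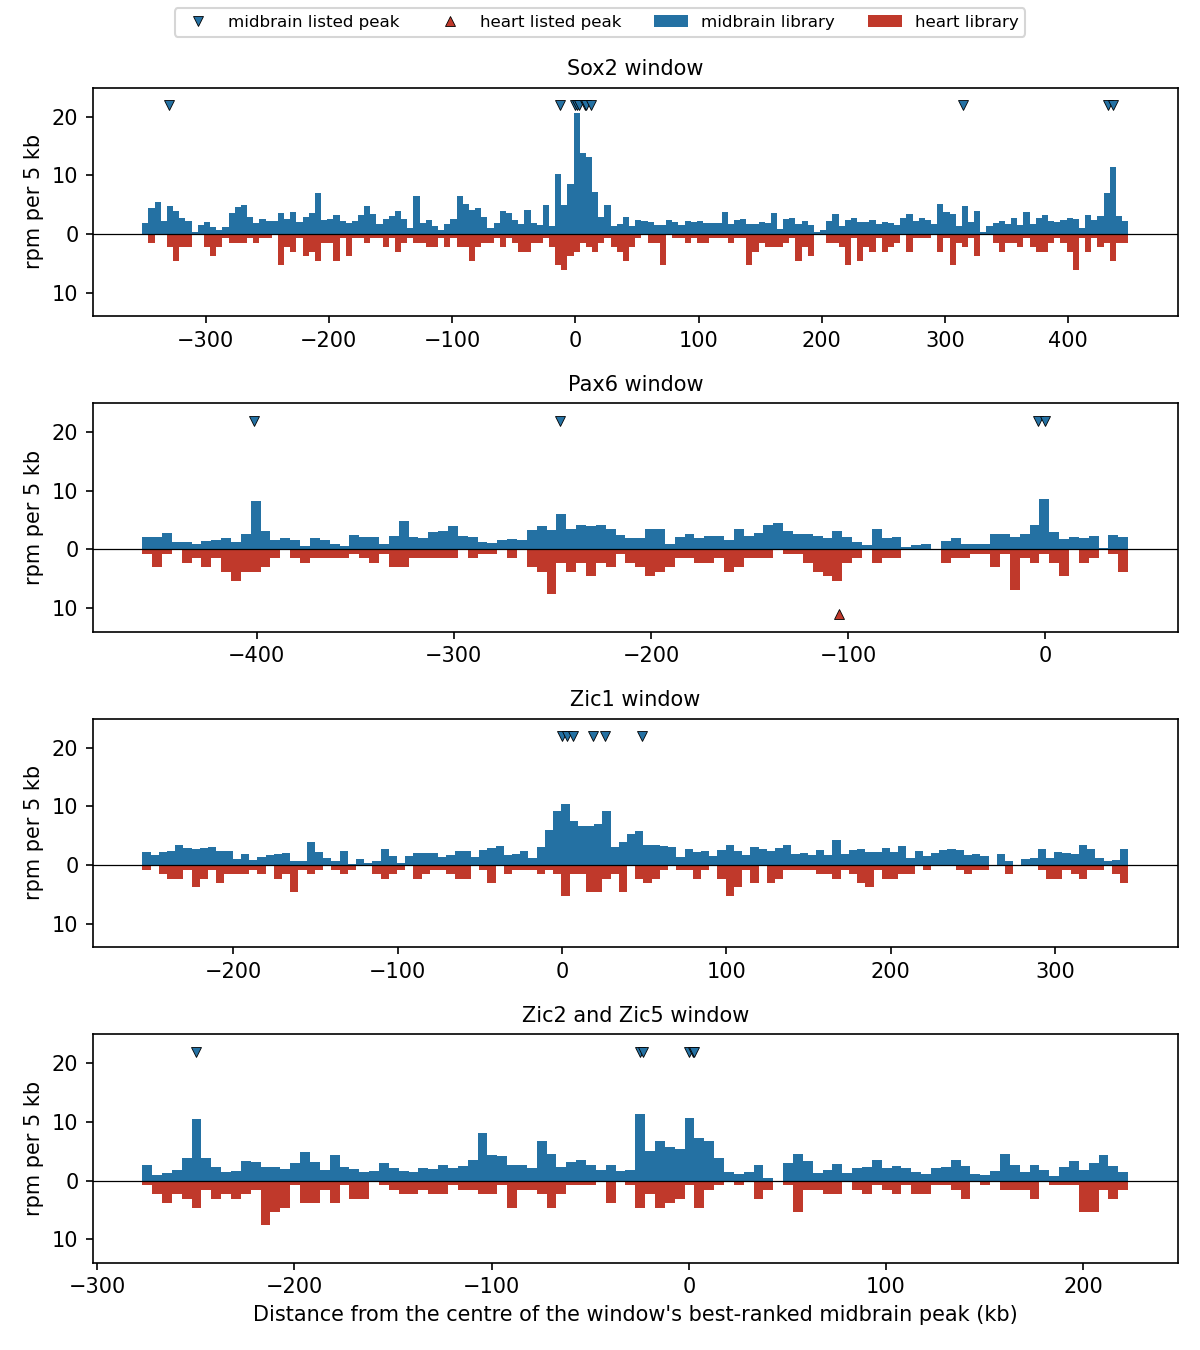
Reads per 5 kb bin (rpm, vertical axis) along each window, with midbrain reads drawn upward in blue and heart reads downward in red, against the distance in kb from the centre of the best-ranked midbrain peak of that window; triangles mark listed peaks. Midbrain reads rise to 20.6 rpm per bin in the Sox2 window, while no heart bin of the 4 windows is above 7.67 rpm.

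The Sox2 window carried the best-ranked and most heavily covered of these sites. Its 11 peaks held 305 midbrain reads (52.0 rpm) and 9 heart reads (6.90 rpm). The peaks were listed from the midbrain reads, so this midbrain over heart ratio of 7.53 (interval 3.91 to 16.6) is a description. The peaks covered 1.42% of the window's bases and held 10.8% of its midbrain reads against 2.20% of its heart reads.

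Of the Sox2 peaks, 6 formed a group, each centre at most 10 kb from the next, on chromosome 3 at 34550225 to 34564924. The group spanned 14.7 kb and its peaks held 203 midbrain and 5 heart reads (ratio 9.02, interval 3.80 to 28.1). This group carried 66.6% of the midbrain reads in the window's peaks. Its first member, at 34550225 to 34552424, has rank 43 in the midbrain list and is the widest of the 27 peaks (2200 bp). It held 72 midbrain reads (12.3 rpm) and 3 heart reads (2.30 rpm), with a coverage maximum of 17 midbrain and 2 heart reads. The midbrain over heart ratio was 5.33 (interval 1.75 to 26.5).

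The other large members of the group followed within the same span. The peak at 34558334 to 34559635 (rank 206) held 38 midbrain reads and no heart read, and the lower bound of its ratio was 2.18, the highest among the 27 peaks. The peak at 34563404 to 34564924 (rank 526) held 33 midbrain reads and no heart read, with a lower bound of 1.88. The peak at 34553317 to 34554602 (rank 396) held 32 midbrain reads and 1 heart read, a ratio of 7.11 (interval 1.19 to 289). The remaining members, ranks 1286 and 1879, were narrow (606 and 578 bp) and held 15 and 13 midbrain reads, with intervals that included 1. At 15 midbrain reads and no heart read the lower bound is 0.797, so peaks this small could not have an interval above 1.

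**Figure D2:**
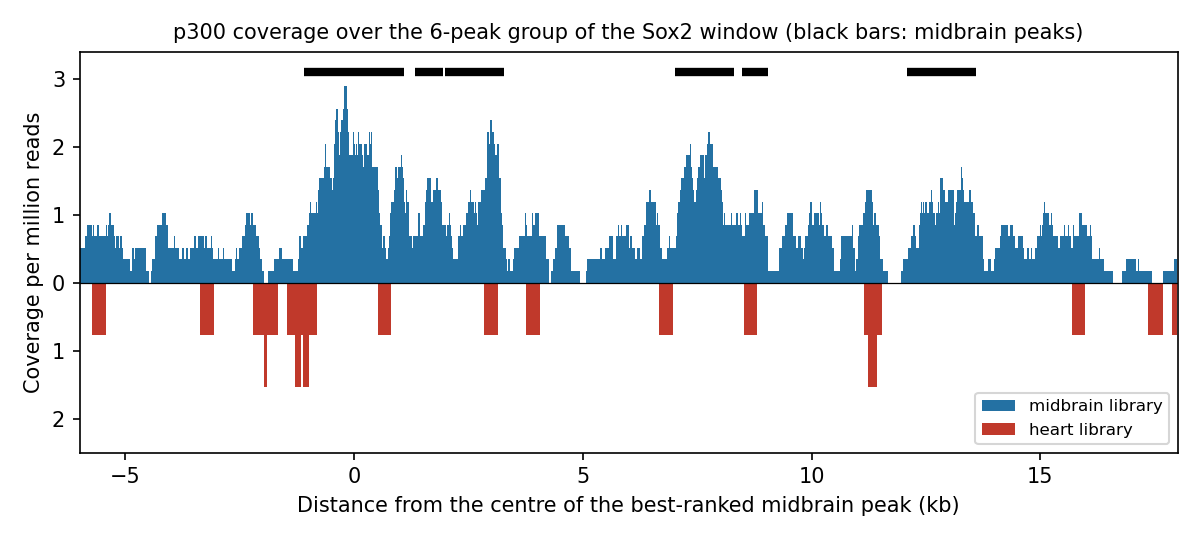
Coverage at 25 bp steps from the deposited tracks, in reads per 1000000 aligned reads (vertical axis; midbrain upward, heart downward), against distance in kb from the centre of the best-ranked (rank 43) peak; black bars are midbrain peaks. Midbrain coverage reaches 2.90 and forms several humps under the bars, while the heart track stays at single reads and pairs of overlapping reads, at most 1.53.

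Outside that group the Sox2 window held a pair of peaks near its far end and 3 single peaks. The pair lay at 34983155 to 34983668 (rank 484) and 34986640 to 34988232 (rank 196). The rank 196 peak held 43 midbrain and 3 heart reads (7.33 and 2.30 rpm, ratio 3.18, interval 1.02 to 16.0). The rank 484 peak held only 20 midbrain reads and no heart read, but in 514 bp, so its mean coverage of 11.0 midbrain reads was above the 9.35 of the wider rank 43 peak and the highest of the 27. The single peaks, at 34221369 to 34221918, 34538707 to 34539374 and 34865251 to 34865827, held 13, 11 and 15 midbrain reads against 1, 0 and 0 heart reads. Their ratio intervals included 1, and at so few midbrain reads they could not have lain above it. No listed peak of either tissue lay within 100 kb outside this window.

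The Pax6 window held a pair of neighbouring midbrain peaks and 2 that stood alone, and none was among the best ranks. Its 4 peaks held 78 midbrain and 2 heart reads (13.3 and 1.53 rpm, ratio 8.66, interval 2.32 to 72.8). The best-ranked, on chromosome 2 at 105757467 to 105758568 (rank 638), held 26 midbrain reads and no heart read, with a lower bound of the ratio of 1.46. A smaller peak at 105753814 to 105754323 (rank 1501), whose centre lies 3949 bp away, held 14 midbrain reads and no heart read. The peak at 105356087 to 105357199 (rank 738) held 25 midbrain reads and 1 heart read, and the one at 105511252 to 105511938 (rank 2310) held 13 and 1. Both had intervals that included 1, and at 13 midbrain reads an interval above 1 was not possible.

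The heart peak of the Pax6 window was a weak member of its list. It lay at 105652904 to 105653657 (754 bp) with rank 3463 of 3597, between the midbrain peaks and overlapping none of them. It held 5 heart reads (3.83 rpm, 3 of them on the minus strand) and 4 midbrain reads (0.681 rpm), so the heart value was 5.63 times the midbrain value (interval 1.21 to 28.4). The interval lay above 1 for this peak and for 90.0% of the whole heart list, which was listed from the same heart reads. Coverage reached 3 reads in each library, which is 3 among 1303861 heart reads and 3 among 5869671 midbrain reads.

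The Zic1 peaks formed 1 run, with each centre at most 50 kb from the next. At the 10 kb used for the Sox2 group they fell into groups of 3, 2 and 1. All 6 lay on chromosome 9 at 91254993 to 91304357, a span of 49.4 kb, and held 96 midbrain and 4 heart reads (16.4 and 3.07 rpm, ratio 5.33, interval 2.02 to 20.0). With reads moved by 150 bp before counting the ratio was 3.04, and from coverage 2.99. The best-ranked was the first, at 91254993 to 91255747 (rank 744), with 21 midbrain reads and 1 heart read. The peak at 91281177 to 91282175 (rank 805) held 23 midbrain reads and no heart read, with a lower bound of 1.28, and was the only Zic1 peak whose interval lay above 1. The peak at 91274242 to 91274893 (rank 1707) was the one with the lowest ratio of the 27: its 14 midbrain and 3 heart reads are 2.39 and 2.30 rpm, a ratio of 1.04 (interval 0.289 to 5.63). The other 3, ranks 1926, 2157 and 2720, held 14, 12 and 12 midbrain reads and no heart read, too few midbrain reads for an interval above 1.

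The Zic2 and Zic5 window held 5 of its 6 peaks on chromosome 14 at 122852102 to 122880279, a span of 28.2 kb. The 6 peaks held 98 midbrain and 4 heart reads (16.7 and 3.07 rpm, ratio 5.44, interval 2.06 to 20.4). A move of 150 bp gave 2.89, and coverage 3.63. The peak at 122876383 to 122877889 (rank 718, 1507 bp) was the best-ranked, with 1 heart read against 30 in the midbrain, a 6.66-fold difference in rpm (interval 1.11 to 272). It was followed within 3.90 kb by the peaks at 122878957 to 122879579 (rank 2359) and 122879742 to 122880279 (rank 2168), with 13 and 12 midbrain reads and no heart read. The pair at 122852102 to 122852875 (rank 1127) and 122853706 to 122854197 (rank 2261) held 18 and 12 midbrain reads and 1 heart read each. The single peak at 122626821 to 122627588 (rank 2414) held 13 midbrain reads and 1 heart read. Within 100 kb beyond the far end of this window lay 1 more listed midbrain peak, which was not taken.

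**Figure D3:**
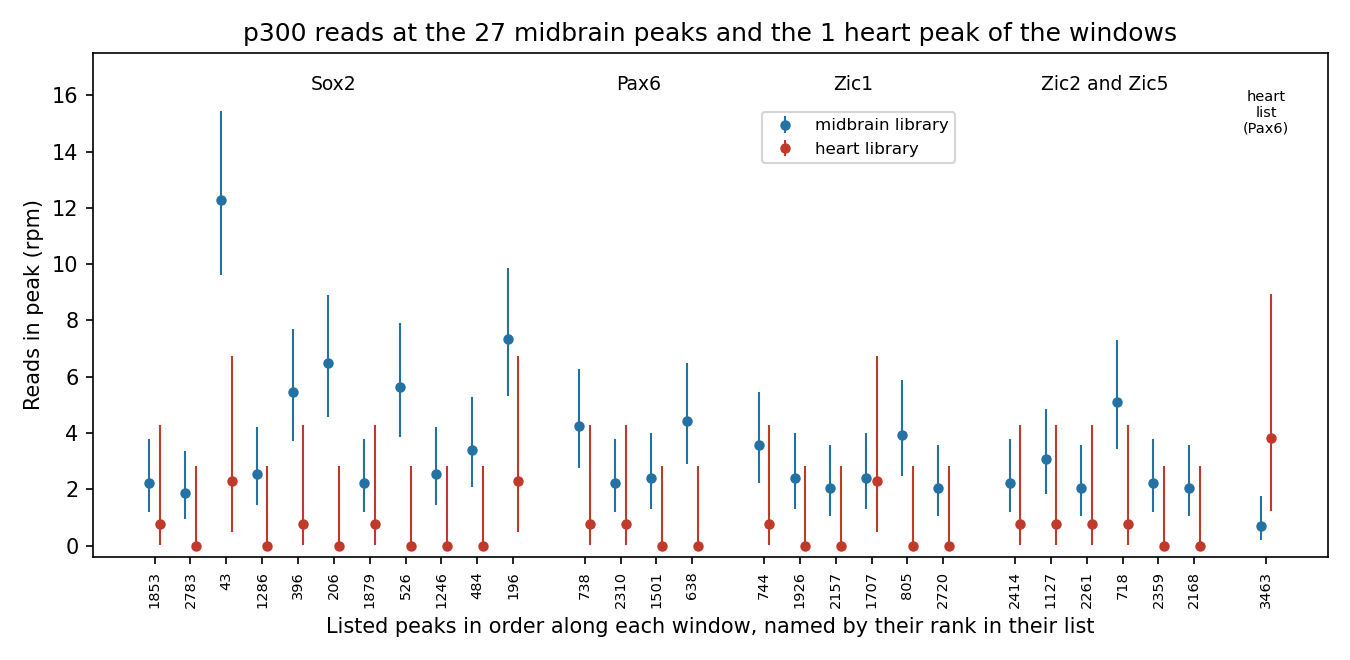
Reads in each listed peak of the windows (rpm, vertical axis) in the midbrain library (blue) and the heart library (red), with exact 95% Poisson intervals; peaks stand in order along each window and are named by rank in their list, and the last is the heart peak. Midbrain values run from 1.87 to 12.3 rpm at the 27 midbrain peaks, heart values from 0 to 2.30 rpm, and most pairs of intervals overlap.

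Peak by peak, the interval of the midbrain over heart ratio lay above 1 at 9 of the 27 peaks, where it did so for 21.6% of the whole midbrain list. The 9 were 6 Sox2 peaks and 1 peak in each of the other windows. This count depends on the midbrain read number. With no heart read the lower bound was 0.797 at 15 midbrain reads and 1.10 at 20. Peaks with 15 midbrain reads, the median of the 27, or fewer could therefore not have an interval above 1, whatever the heart library held. The same limit holds for the list. With 99% intervals 3 peaks were left, beside 8.40% of the list. At no midbrain peak of the windows did the interval lie below 1, but the peaks were listed from the midbrain reads, so this is a description. Of the 27 peaks, 14 (51.9%) held no heart read, against 40.7% of the list. Pooled over the 27 peaks, 577 midbrain and 19 heart reads gave a ratio of 6.75 (interval 4.28 to 11.3), and all 2786 midbrain peaks gave 3.39 (interval 3.28 to 3.51). Pooled values follow the peaks with most reads, and the Sox2 window supplied 305 of the 577. The list also holds the 5.56% of midbrain peaks that overlap a heart peak, while none of the 27 does. A list ratio without them was not computed.

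In rank, width and midbrain read number the 27 peaks lay close to the middle of their list. Their median rank was 1286 against 1393.5 for the list, their median width 683 bp against 743 bp, and their median midbrain read number 15 (quartiles 13 and 25.5) against 17 (quartiles 13 and 24). Of the 27, 5 had a rank of 500 or better (18.5%), against 17.9% of the list, and 1 a rank of 100 or better. All 5 lay in the Sox2 window. Their spacing differed from that of the list: 18 (66.7%) had the centre of another midbrain peak within 5 kb, against 21.0% of the list, and 22 (81.5%) within 50 kb, against 43.0%. The windows were drawn with results of these data known, so this spacing is a description.

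**Figure D4:**
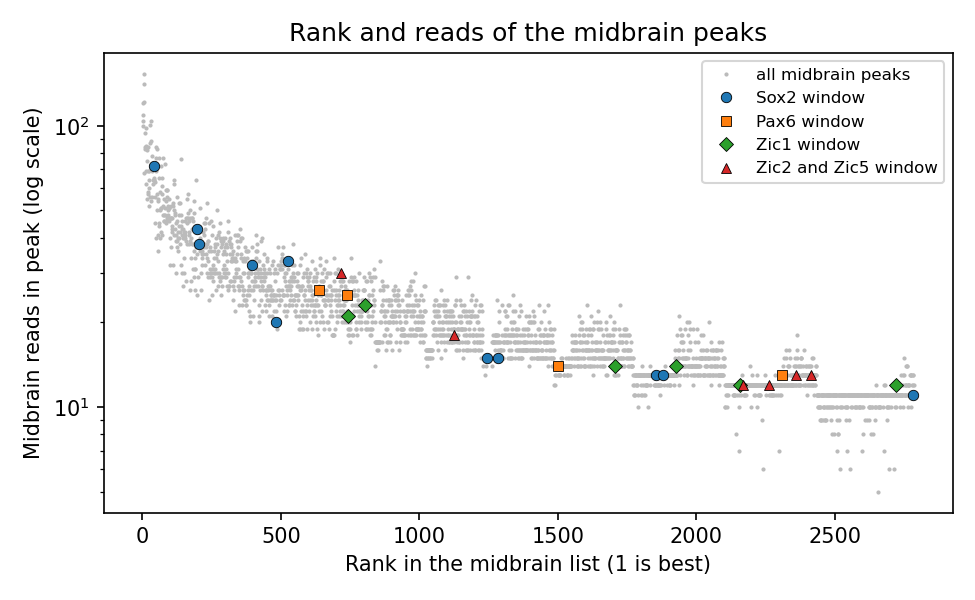
Midbrain reads in each midbrain peak (vertical axis, log scale) against its rank in the list (horizontal axis); grey points are all 2786 peaks and coloured symbols the 27 peaks of the windows. The Sox2 peaks reach the upper left, at rank 43 with 72 reads, and the Zic and Pax6 peaks start at rank 638.

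Reads outside all listed peaks did not choose the peaks and were compared next. Over the 4 windows there were 7258 such midbrain and 1153 such heart reads, and the midbrain rpm was 1.40 times the heart rpm (interval 1.31 to 1.49). In the Sox2 window the ratio was 1.40 (interval 1.26 to 1.56), with 0.546 rpm per kb in the midbrain and 0.390 in the heart. It was 1.16 in the Pax6 window (interval 1.02 to 1.33; 0.981 to 1.29 at least 2 kb from listed peaks), 1.65 in the Zic1 window (interval 1.44 to 1.90) and 1.41 in the Zic2 and Zic5 window (interval 1.24 to 1.61). The interval lay above 1 in all 4 windows. It did so in 40.6% of 500 kb tiles, 41.5% of 600 kb tiles and 42.3% of 800 kb tiles, so such a ratio is common in these libraries. Tiles with a ratio at least as high made up 20.6% for the Sox2 window, 41.6% for Pax6, 6.19% for Zic1 and 21.3% for Zic2 and Zic5.

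**Figure D5:**
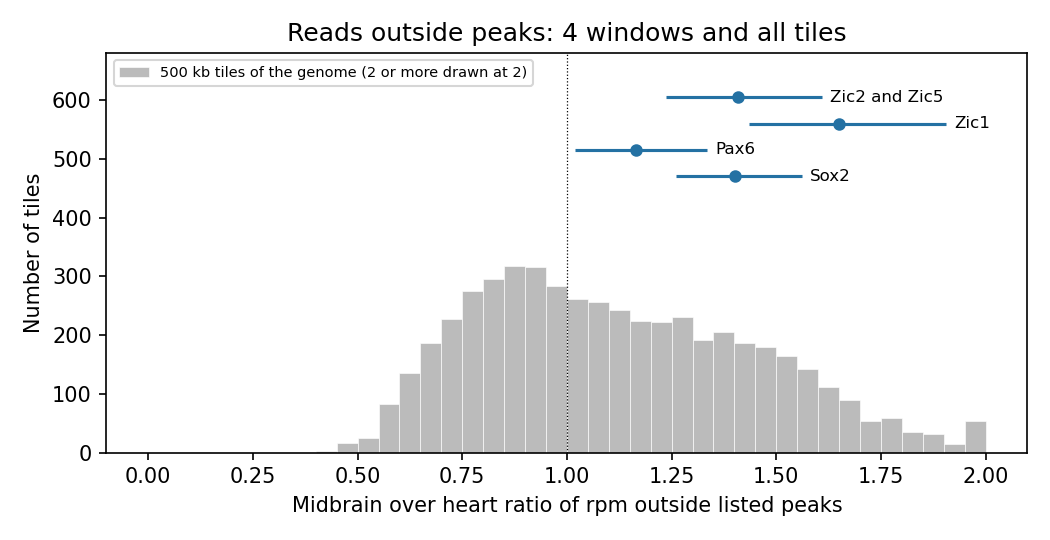
Midbrain over heart ratio of rpm outside listed peaks (horizontal axis): grey bars count 500 kb genome tiles (ratios of 2 or more are drawn at 2), and blue points with exact 95% intervals are the 4 windows, whose lengths are 500 to 800 kb. The windows lie between 1.16 and 1.65, and the middle of the 500 kb tiles (quartiles) runs from 0.856 to 1.36.

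Midbrain reads were also denser between the listed peaks of these loci than in the rest of the windows. The runs are chains of midbrain peaks, which were listed from the midbrain reads, so these midbrain densities are a description. Bases right next to the peak edges were included, and spill-over of reads from the peaks was not tested. In the run of 6 Zic1 peaks the bases between the peaks held 1.08 midbrain rpm per kb against 0.431 in the rest of the window outside peaks, a ratio of 2.50 (interval 2.19 to 2.84). At 50 kb the single Sox2 peak at 34538707 to 34539374 joins the group of 6, giving a run of 7 peaks at 34538707 to 34564924. The midbrain ratio was 2.94 (interval 2.49 to 3.45) in this Sox2 run and 2.23 (interval 1.89 to 2.61) in the Zic2 and Zic5 run of 5 peaks. Heart reads were denser there too: 2.08 times in the Zic1 run (interval 1.39 to 3.02), 2.12 times in the Sox2 run (interval 1.26 to 3.36) and 1.74 times in the Zic2 and Zic5 run (interval 1.07 to 2.70). The midbrain over heart ratio between the peaks was 1.93 (interval 1.34 to 2.85), 1.91 (interval 1.18 to 3.25) and 1.76 (interval 1.12 to 2.88) in the same order. Over all 34 midbrain runs of at least 5 peaks, of which these are 3, this ratio had quartiles of 1.25 and 1.92. The midbrain density between peaks had quartiles of 0.713 and 1.34 rpm per kb over the 34 runs, and the Sox2 run lay above them at 1.54, with the Zic1 run (1.08) and the Zic2 and Zic5 run (1.22) between them. The heart density had quartiles of 0.462 and 0.838, and the Sox2 (0.807), Zic1 (0.560) and Zic2 and Zic5 (0.696) runs lay between them.

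At the peaks themselves heart reads stood little above their surroundings. Within the 27 midbrain peaks heart reads were 1.66 times as dense as outside listed peaks in the same windows (interval 0.993 to 2.60), an interval that includes 1. Midbrain reads were 7.99 times as dense (interval 7.33 to 8.70), and the peaks were listed from these reads. Against flanks 5 to 10 kb away, with bases shared by neighbouring peaks counted once, heart reads at the 27 peaks were 1.14 times as dense (interval 0.665 to 1.85), while over the whole midbrain list they were 2.44 times as dense (interval 2.36 to 2.53). Midbrain reads were 4.70 times as dense as the flanks at the 27 peaks (interval 4.24 to 5.22) and 7.58 times over the list (interval 7.50 to 7.67). The flanks differ in kind: 74.1% of the 27 peaks had another midbrain peak centre within 10 kb, against 25.8% of the list. The list also holds peaks that overlap a heart peak, and none of the 27 does. Both libraries were denser between the peaks of the runs above, so flank ratios of the 27 peaks and of the list are not directly comparable. Only 19 heart reads stand behind the values for the 27 peaks.

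Unlisted sites were looked for in 500 bp bins that hold a read and no listed peak. Of 3537 such bins in the windows, 38 (1.07%) held at least 8 midbrain reads, against 0.169% of all such bins of the genome. The windows were drawn with results of these data known, so the shares of bins are a description. Of these 38, 15 lay in the Sox2 window, 12 in the Zic2 and Zic5 window, 7 in the Zic1 window and 4 in the Pax6 window. Of the 3391 bins at least 2 kb away from every listed peak, 19 (0.560%) held at least 8 midbrain reads, against 0.152% of such bins of the genome. Of these 19, 9 lay in the Zic2 and Zic5 window, 6 in the Sox2 window, 4 in the Pax6 window and none in the Zic1 window. The highest single bins held 11 midbrain reads, as many as the weakest listed peak of the windows. For heart the limit was 4 reads, which is 3.07 rpm and higher than the 1.36 rpm of 8 midbrain reads. The bin counts of the 2 libraries are therefore not comparable. At least 4 heart reads were found in 2 bins (0.0565%), against 0.182% in the genome. Both lay in the Sox2 window, at 34591001 to 34591500 and 34694001 to 34694500, each with 4 heart reads (3.07 rpm) and with 3 and 2 midbrain reads.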

How the data were processed

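p300 ChIP-seq reads of 36 bp from heart and midbrain were analysed, 1 library each. The build is mm9 per the file headers. The authors deposited aligned reads, 1 per line, which were counted per region; they had lengthened reads to 300 bp, and no position and strand repeats. The deposited signal (coverage) tracks hold whole numbers at 25 bp steps, unscaled, and matched the lengthened reads within 1 read at every step checked in the windows. Peak lists give start, end and rank. The word blat stands in the heart track name per the file headers; the peak caller, its threshold and any control are not given in the sources used here.

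Reads were placed by their 5′ end moved by 23 bp (heart) and 35 bp (midbrain), from strand offsets of 46 and 70 bp within peaks, searched from 46 to 500 bp; the profile was nearly flat and the heart value sits at the lower limit. Counts were divided by all aligned reads (heart 1303861, midbrain 5869671). Ratios carry exact conditional binomial 95% intervals, tested on simulated data with known folds. A peak was called where the interval lay above 1. Overlap means at least 1 bp. Tiles covered chromosomes 1 to 19 and X from end to end. Peaks given in full were all heart peaks, the 3 best-ranked midbrain peaks of a window and those with an interval above 1. A second list of neural genes was not analysed here because the gene table is on GRCm38. Members, windows and lists were chosen with earlier results of these data known, and the limits of 8 and 4 reads per bin and the runs were set after peaks had been seen. Intervals used scipy 1.17.1, tables pandas 2.3.3 and numpy 2.4.6, and plots matplotlib 3.10.9, under Python 3.11.15. The dissection protocol in the labels does not mention the heart.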

Additional observations from a re-analysis of the deposited data

How the results depend on the processing

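Of 33 alternatives, 28 stayed within the interval of the reported ratio or within 1.5 times the reported count, and none turned a direction. The intervals of these 28, where given, did not come to include 1. A further 1 stayed within the reported interval, but its own interval included 1, and 4 counts moved further. Keeping only the better-ranked 50% of each list left 14 midbrain peaks and 0 heart peaks in the windows. In the Pax6 window, the reads at least 2 kb from every listed peak were 1.12 times as many rpm in the midbrain (interval 0.981 to 1.29), which includes 1. The number of midbrain peaks called, 9, was 14 with a ratio of at least 2 and 3 reads as the floor (41.5% of the list), and 3 with 99% intervals (8.40% of the list). With the midbrain library thinned to the heart depth it was 8 of 27, beside 14.3% of the list. Shifts of 0 and 150 bp and the coverage tracks kept each window's ratio at the midbrain peaks within its interval, although the Zic ratios moved by over 1.5 times: with 150 bp Zic1 fell from 5.33 to 3.04 and Zic2 and Zic5 from 5.44 to 2.89, and coverage gave 2.99 and 3.63. Depth is a limit: 4 heart reads or fewer stand behind each of the Pax6 and Zic ratios.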
